A study of Mus musculus with 8 samples.

Results

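Checkpoint receptors are surface proteins that lower the response of a T cell when their ligands are bound. The 10 genes described here are Havcr2 (TIM-3), Lag3, Pdcd1 (PD-1), Cd160, Btla, Vsir (VISTA), Cd200, Cd5, Lair1 and Cd101. They were chosen by name as inhibitory receptors of T cells that do not belong to the nectin-binding group. The choice was made with earlier results of these data known. Each was matched by its Ensembl identifier in the deposited tables, giving 10 of the 47069 Ensembl genes present in both. Their transcripts were measured by RNA sequencing in 2 populations of regulatory T cells (Tregs) from lymph nodes of C57BL/6 mice of 6 to 8 weeks, all of them 35EbiT × Blimp1-GFP KI animals. Ebi3-Treg cells were Thy1.1+ and Blimp1-, and Blimp1-Treg cells were Thy1.1- and Blimp1+. Both were enriched as CD4+ cells on magnetic beads and gated as CD25+ and CD62L low, with a stated typical purity above 90%. The populations are therefore defined by reporters in mice of 1 genotype. The labels do not say what drives Thy1.1 in 35EbiT animals, and they name no treatment. Each had 4 libraries, with replicates 1 and 2 of both deposited in one table and replicates 3 and 4 in another. The labels do not tell whether the replicates are different mice, and p-values therefore reflect only sample-to-sample spread, which could be technical.

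Many inhibitory receptors carry short tyrosine motifs in their tails that recruit phosphatases such as SHP-1 (Ptpn6) and SHP-2 (Ptpn11), which act against antigen receptor signalling. Others, such as LAG-3 and TIM-3, use different tail motifs and adaptors, and CD160 is often anchored in the membrane by a lipid. Tregs carry several of these receptors, which can restrain the Treg itself or, as with CD200, act as ligands on a neighbouring cell. Blimp1 (gene Prdm1), the factor behind the GFP reporter, is a transcriptional repressor known in T cells for its link with inhibitory receptor expression.

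The depth inferred from the values was 13.3 to 25.6 M fragments (M, mega) in Ebi3-Treg libraries and 14.7 to 31.3 M in Blimp1-Treg libraries. At that depth a single fragment of a transcript of 1 kb counts for 0.0320 to 0.0750 FPKM (fragments per kilobase and megafragment). Foxp3, which defines Tregs, was at 292 ± 90.0 FPKM in Ebi3-Treg, against 313 ± 95.6 in Blimp1-Treg (SD, n = 4 each). It is 1 of 6 Treg markers, of which 0 passed in the main fit. In the limma fit that blocks on replicate number 2 of the 6 were lower in Ebi3-Treg, as were 8.94% of all tested genes. These were Ctla4 (-0.76, adjusted p = 0.0115) and Cd3e (-0.45, adjusted p = 0.00876). The genes that name the populations differed as labelled, with Ebi3 at 29.6 ± 11.7 FPKM in Ebi3-Treg, against 7.67 ± 2.84 in Blimp1-Treg, and Prdm1 at 3.31 ± 1.004 FPKM in Ebi3-Treg, against 94.2 ± 29.6 in Blimp1-Treg (SD, n = 4 each). Thy1, whose Thy1.1 form was used in the sort, was at 26.2 ± 9.90 FPKM in Ebi3-Treg, against 19.2 ± 7.18 in Blimp1-Treg (SD, n = 4 each), with overlapping libraries and a log2 difference of 0.43 that did not pass (adjusted p = 0.375, and 0.0136 with the block). Transcripts of B cells were present, and the summed FPKM of 10 B cell markers was highest in library 1 of both populations (277 in Ebi3-Treg 1 and 188 in Blimp1-Treg 1, against at most 74.5 in the other 6).

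The comparison asks which checkpoint receptor transcripts distinguish Ebi3-Treg from Blimp1-Treg cells. Havcr2, Lag3 and Vsir were lower in Ebi3-Treg, with ratios of means of 25.6, 14.0 and 1.80 in favour of Blimp1-Treg. The Havcr2 ratio rests on a mean of only 0.643 FPKM in Ebi3-Treg. On the log2 scale of the test Havcr2 (-3.40) and Lag3 (-3.36) changed by about as much. Cd160 and Cd200 were higher in Ebi3-Treg, with ratios of means of 8.91 and 2.21. Pdcd1, Btla, Cd5, Lair1 and Cd101 did not pass the test.

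That made 5 of the 10 genes past an adjusted p of 0.05 (limma on log2(FPKM + 1), Benjamini-Hochberg over all 12273 genes tested), 2 higher and 3 lower in Ebi3-Treg, where 6.29% of all tested genes passed, 3.37% higher and 2.93% lower. Because the 10 genes were chosen with earlier results of these data known, such counts beside the share of all genes are no test of the group. A negative log2 fold change means lower in Ebi3-Treg, and this scale understates the change of low genes. The median over the 10 was -0.076, against 0.067 over all genes tested. The values of the 4 Ebi3-Treg and 4 Blimp1-Treg libraries did not overlap for 6 of the 10 genes (3 higher and 3 lower), the 5 above and Btla, where 11.1% of all tested genes did not overlap, 6.63% higher and 4.5% lower. A fit that blocks on replicate number passed 6 of the 10, Btla in addition, and 22.4% of all genes. All 10 were tested, because each reached 1 FPKM in at least 4 of the 8 libraries. Havcr2 did so through all 4 Blimp1-Treg libraries and 1 Ebi3-Treg library, and Cd160 through all 4 Ebi3-Treg libraries and 1 Blimp1-Treg library, so passing the filter says nothing for these genes. In bulk samples, fewer cells that express a gene and less RNA per cell cannot be told apart.

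**Figure D1:**
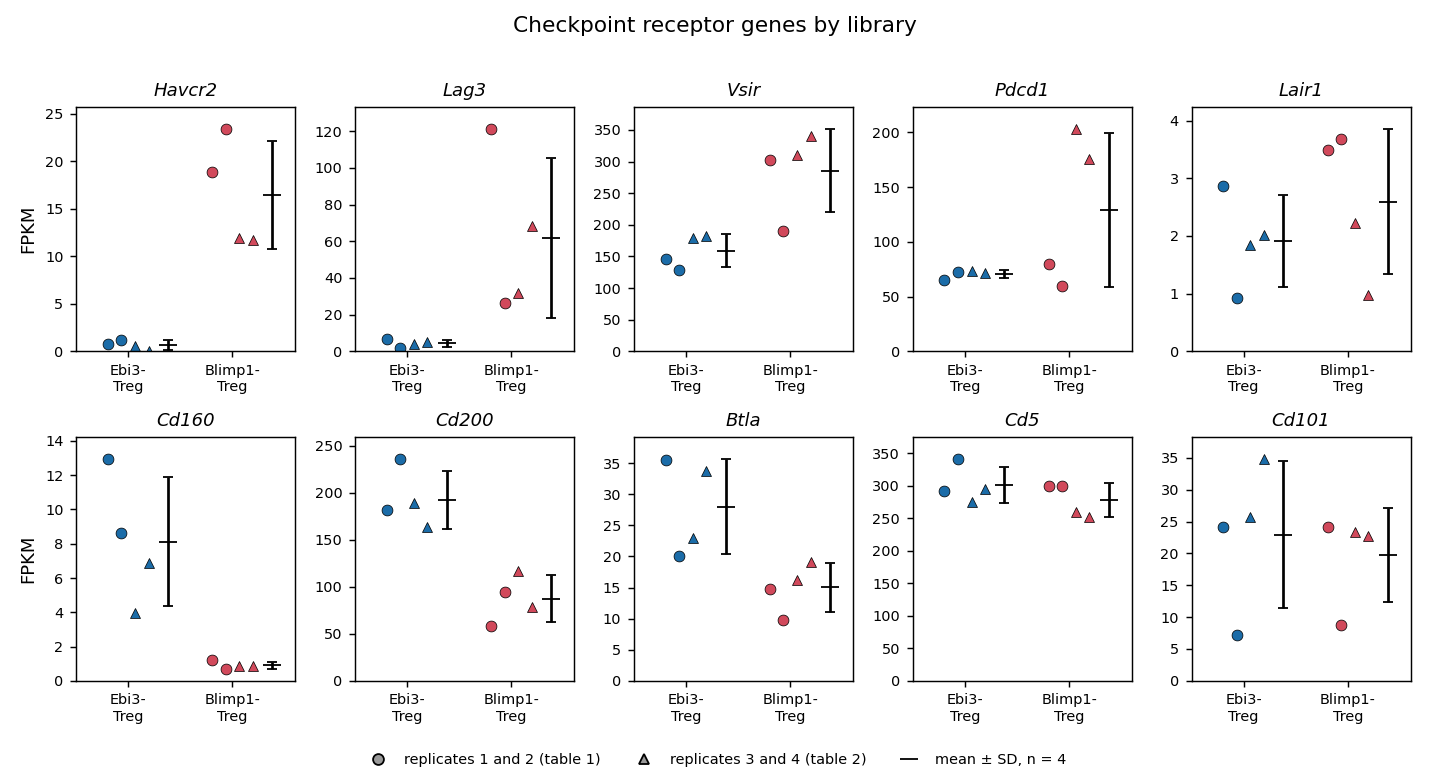
FPKM of each checkpoint receptor gene (y axis, linear) in the 4 Ebi3-Treg libraries (left in each panel) and the 4 Blimp1-Treg libraries (right), with circles for replicates 1 and 2, triangles for replicates 3 and 4, and the mean ± SD beside them. Havcr2 lies between 0.0345 and 1.21 FPKM in Ebi3-Treg against 11.7 to 23.3 FPKM in Blimp1-Treg, while the Cd5 points of the populations overlap.

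Start regions of 3 genes are shown, Havcr2 and Cd160 as the members with the largest called change in each direction and Cd200 as the other member that was higher in Ebi3-Treg. The windows run from 250 bases before to 50 bases after a gene's start and come from RefSeq on GRCm38.p6, a build other than the mm9 named in the submitters' notes. A pair of motifs was searched on both strands. Capitals mark matches to GNGAAAG, whose letters hold the GAAAG core of Blimp1 sites, or to CTTTGA or CTTTGT, the kind of site bound by TCF-1 and LEF-1. The motifs do not overlap each other in these windows.
Havcr2, chr11:46454681-46454980, plus strand: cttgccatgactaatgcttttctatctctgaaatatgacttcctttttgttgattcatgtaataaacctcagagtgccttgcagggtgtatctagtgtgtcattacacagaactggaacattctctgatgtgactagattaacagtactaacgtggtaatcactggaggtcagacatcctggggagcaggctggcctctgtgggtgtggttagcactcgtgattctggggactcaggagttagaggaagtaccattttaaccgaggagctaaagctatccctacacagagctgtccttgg
Cd160, chr3:96814472-96814771, minus strand: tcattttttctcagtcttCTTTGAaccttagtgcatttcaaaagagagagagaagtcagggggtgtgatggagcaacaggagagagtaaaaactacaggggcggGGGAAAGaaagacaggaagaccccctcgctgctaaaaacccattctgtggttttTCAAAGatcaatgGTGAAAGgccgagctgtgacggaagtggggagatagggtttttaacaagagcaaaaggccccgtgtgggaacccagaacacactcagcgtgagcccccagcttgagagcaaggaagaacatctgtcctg
Cd200, chr16:45409004-45409303, minus strand: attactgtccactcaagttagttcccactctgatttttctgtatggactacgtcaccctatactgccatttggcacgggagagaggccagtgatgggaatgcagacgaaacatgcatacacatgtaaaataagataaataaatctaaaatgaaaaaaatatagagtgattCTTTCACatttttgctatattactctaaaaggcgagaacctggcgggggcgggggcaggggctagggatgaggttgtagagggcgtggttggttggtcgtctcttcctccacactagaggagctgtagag
In the Cd160 window printed GGGAAAG starts 146 bases and GTGAAAG 79 bases upstream of the start, CTTTGA 232 bases upstream, and TCAAAG, which is CTTTGA on the other strand, 92 bases upstream. The Cd200 window holds CTTTCAC, the other strand of GTGAAAG, 80 bases upstream. The Havcr2 window holds neither motif. A promoter entry was found for 9 of the 10 genes (all but Lag3), in 10 windows, of which Cd160 has 2. The other Cd160 window, chr3:96829302-96829601 on the minus strand, holds neither motif. GNGAAAG was found for 3 of the 9 genes (Cd160, Cd200 and Lair1) and CTTTGA or CTTTGT for 1 (Cd160). Over all 32851 windows of the same length the share with a match was 22.6% for GNGAAAG and 31.2% for CTTTGA or CTTTGT, and over all 27025 genes, each with all its windows, 25.3% and 34.5%. A match is a description of letters and shows no binding, and a window without one says nothing of the factor.

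Havcr2 (ENSMUSG00000020399) encodes TIM-3, a receptor for galectin-9 and other ligands that is known from interferon-producing and terminally stimulated T cells. It was at 0.789, 1.21, 0.543 and 0.0345 FPKM in Ebi3-Treg libraries 1 to 4, against 18.8, 23.3, 11.9 and 11.7 FPKM in Blimp1-Treg libraries 1 to 4. Every Blimp1-Treg library lay above every Ebi3-Treg library, and Ebi3-Treg 4 was near the limit of detection, at about 2.07 fragments by the reference exon length. The log2 fold change was -3.40 (SE 0.19, 95% interval -3.85 to -2.96, adjusted p = 0.00025), and only 7 of the 12273 tested genes had a lower one. It was -3.47 (adjusted p = 0.00662) within replicates 1 and 2 and -3.34 (adjusted p = 0.0142) within replicates 3 and 4.

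Lag3 (ENSMUSG00000030124) encodes a CD4-like receptor for MHC class II. It was at 6.73, 1.96, 4.14 and 4.81 FPKM in Ebi3-Treg libraries 1 to 4, against 121, 26.4, 31.8 and 68.5 FPKM in Blimp1-Treg libraries 1 to 4. No Ebi3-Treg library came near the lowest Blimp1-Treg library, while the Blimp1-Treg libraries differed 4.59-fold among themselves. Its log2 fold change was -3.36 (SE 0.52, 95% interval -4.56 to -2.16, adjusted p = 0.00899). Within replicates 1 and 2 it was -3.60 (adjusted p = 0.0968) and within replicates 3 and 4 -3.13 (adjusted p = 0.159), so the direction was the same in each pair of libraries but the call was not made within either. In the fit with the replicate block it passed within both.

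Vsir (ENSMUSG00000020101) encodes VISTA, a B7-family protein that acts both as a receptor and as a ligand. It was among the most abundant of the 10, at 146, 128, 179 and 182 FPKM in Ebi3-Treg libraries 1 to 4, against 302, 190, 310 and 340 FPKM in Blimp1-Treg libraries 1 to 4. Blimp1-Treg 2 was the lowest of its population and lay just above Ebi3-Treg 4, so the populations did not overlap. The change was -0.82 (SE 0.16, 95% interval -1.20 to -0.45, adjusted p = 0.0241). The call was lost when any 1 of Ebi3-Treg 2 to 4 and Blimp1-Treg 3 and 4 was left out (adjusted p up to 0.103), and without the table term (adjusted p = 0.0956). Vsir lies over Cdh23 on the opposite strand, with 0 shared exon bases.

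Pdcd1 (ENSMUSG00000026285) encodes PD-1, the receptor of PD-L1 and PD-L2. It was at 65.3, 72.3, 73.1 and 71.5 FPKM in Ebi3-Treg libraries 1 to 4, against 79.5, 59.5, 203 and 175 FPKM in Blimp1-Treg libraries 1 to 4. Ebi3-Treg libraries were alike, while in Blimp1-Treg the libraries of the second table were far above those of the first. Over both tables the log2 fold change of -0.69 (SE 0.28, 95% interval -1.33 to -0.04) did not pass (adjusted p = 0.233). It was -0.0018 (adjusted p = 0.9997) within replicates 1 and 2, where the populations overlapped, and -1.37 (adjusted p = 0.0466) within replicates 3 and 4, where they did not. Of all tested genes 1.66% passed within replicates 1 and 2 and 0.994% within replicates 3 and 4. The difference between the tables was -1.37 (SE 0.30), with an unadjusted p of 0.00278 but an adjusted p of 0.99996, and 0.121 with the block. By limma, 0 of the 10 genes and 0% of all genes had a contrast that differed between tables at an adjusted p under 0.05. Pdcd1 was the 1 gene of the 10 at an unadjusted p under 0.05, as were 203 of all tested genes (1.65%). With the block 13 genes passed (0.106%), Pdcd1 not among them. Xist was at 0.00821 to 0.0750 FPKM in replicates 1 and 2 and 18.5 to 24.4 FPKM in replicates 3 and 4, so table and sex of the mice cannot be told apart. Without both libraries numbered 2 Pdcd1 passed, at -1.01 (adjusted p = 0.0256), and without both numbered 1 it did not, at -0.82 (adjusted p = 0.136). In these settings 6.94% and 6.99% of all tested genes were lower, against 2.93% in the main fit.

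The ratio of Lag3 to Pdcd1 ran from 0.0271 to 0.103 in Ebi3-Treg and from 0.157 to 1.52 in Blimp1-Treg, with no overlap. PD-1 transcripts thus outnumbered LAG-3 transcripts per kilobase in every Ebi3-Treg library, and in 3 of the 4 Blimp1-Treg libraries.

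CD160 and BTLA share a partner, HVEM (gene Tnfrsf14), which can engage both. Cd160 (ENSMUSG00000038304) was at 13.0, 8.65, 3.98 and 6.85 FPKM in Ebi3-Treg libraries 1 to 4, against 1.20, 0.698, 0.886 and 0.860 FPKM in Blimp1-Treg libraries 1 to 4. Ebi3-Treg 1 was highest, and the lowest Ebi3-Treg library still exceeded the highest Blimp1-Treg library. On the log2 scale the change was 2.16 (SE 0.27, 95% interval 1.55 to 2.78, adjusted p = 0.00386), with 2.59 (adjusted p = 0.0190) within replicates 1 and 2 and 1.74 (adjusted p = 0.0785) within replicates 3 and 4. Cd160 shares 68 bases of exon (2.57% of its exon length) with Pdzk1 on the opposite strand, and whether strand was used in counting is not given in the sources used here. Without both libraries numbered 1 the change was 1.99 (adjusted p = 0.00543), in a setting where 9.06% of all tested genes were higher.

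Btla (ENSMUSG00000052013) was at 35.4, 20.02, 22.9 and 33.7 FPKM in Ebi3-Treg libraries 1 to 4, against 14.8, 9.80, 16.3 and 19.2 FPKM in Blimp1-Treg libraries 1 to 4. The populations did not overlap, although Ebi3-Treg 2 was close to Blimp1-Treg 4. A log2 fold change of 0.86 (SE 0.25, 95% interval 0.29 to 1.42) did not pass (adjusted p = 0.0919, unadjusted p = 0.00857). With the replicate block its adjusted p was 0.00516, and without both libraries numbered 1 the change was 0.74 (adjusted p = 0.0347). More of all tested genes were higher in these settings, 13.5% with the block and 9.06% without both numbered 1, against 3.37% in the main fit. The ratio of Cd160 to Btla was 0.173 to 0.432 in Ebi3-Treg and 0.0449 to 0.0810 in Blimp1-Treg, so Btla was the more abundant of the pair per kilobase in all 8 libraries.

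Cd200 (ENSMUSG00000022661) encodes a surface ligand that signals to CD200R1 on other cells. It was at 181, 236, 189 and 163 FPKM in Ebi3-Treg libraries 1 to 4, against 58.0, 94.4, 117 and 78.6 FPKM in Blimp1-Treg libraries 1 to 4. Even the lowest Ebi3-Treg library exceeded the highest Blimp1-Treg library. The log2 fold change was 1.17 (SE 0.23, 95% interval 0.63 to 1.70, adjusted p = 0.0246). The call was lost when any 1 of Ebi3-Treg 2 to 4 and Blimp1-Treg 4 was left out (adjusted p up to 0.0993), and under median-of-ratios scaling (adjusted p = 0.0550). The ratio of Cd200 to Cd200r1 was 3.59 to 11.3 in Ebi3-Treg and 1.39 to 3.29 in Blimp1-Treg.

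Cd5 (ENSMUSG00000024669), a scavenger receptor family member that tunes down antigen receptor signals, was at 293, 342, 276 and 296 FPKM in Ebi3-Treg libraries 1 to 4, against 299.7, 300.2, 260 and 252 FPKM in Blimp1-Treg libraries 1 to 4. The libraries of the populations overlapped. The log2 fold change of 0.12 (SE 0.11, adjusted p = 0.717) had a 95% interval of -0.15 to 0.38, which does not reach the change of any called gene.

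Lair1 (ENSMUSG00000055541) encodes a collagen receptor. It was low, at 2.87, 0.917, 1.85 and 2.02 FPKM in Ebi3-Treg libraries 1 to 4, against 3.49, 3.69, 2.22 and 0.980 FPKM in Blimp1-Treg libraries 1 to 4. The populations overlapped, and the log2 fold change of -0.27 (SE 0.32) did not pass (adjusted p = 0.786) and was -0.75 within replicates 1 and 2 and 0.22 within replicates 3 and 4.

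Cd101 (ENSMUSG00000086564) encodes an immunoglobulin superfamily protein. It was at 24.1, 7.20, 25.7 and 34.9 FPKM in Ebi3-Treg libraries 1 to 4, against 24.1, 8.71, 23.3 and 22.8 FPKM in Blimp1-Treg libraries 1 to 4. Library 2 was the lowest in both populations. The log2 fold change was 0.12 (SE 0.41, 95% interval -0.83 to 1.07, adjusted p = 0.945), and that interval leaves room for a change in either direction.

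**Figure D2:**
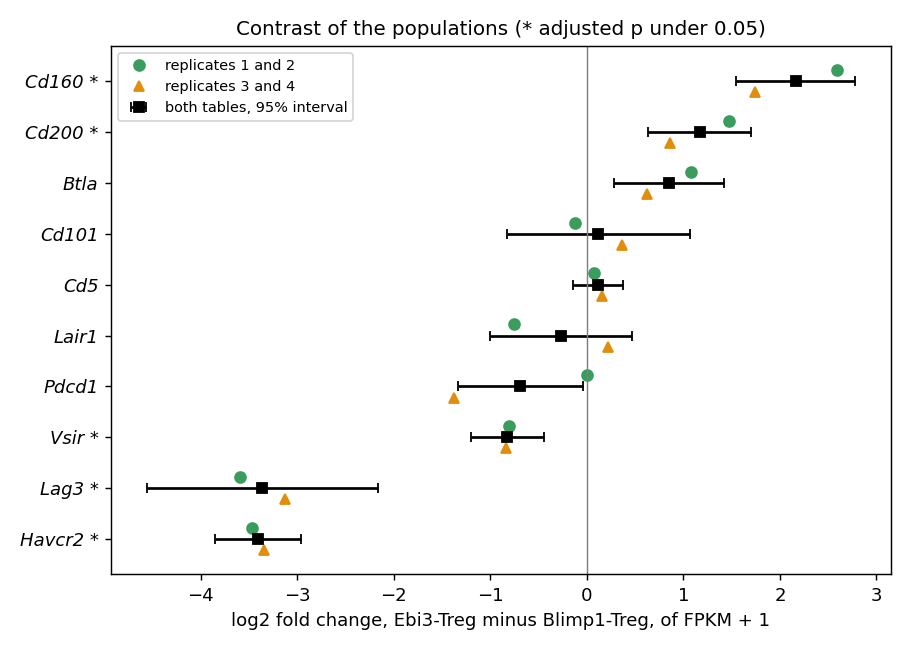
Log2 fold change of FPKM + 1, Ebi3-Treg minus Blimp1-Treg (x axis), for each of the 10 genes (y axis), as black squares with 95% intervals from both tables, green circles for replicates 1 and 2 and orange triangles for replicates 3 and 4. Havcr2 and Lag3 lie near -3.40, Cd160 at 2.16, and for Pdcd1 the circle at -0.0018 and the triangle at -1.37 stand apart.

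Within a table, the 2 Ebi3-Treg and 2 Blimp1-Treg libraries did not overlap for 7 of the 10 genes in replicates 1 and 2 and for 9 of the 10 in replicates 3 and 4. The same held for 28.2% and 58.6% of all tested genes, so the second table separates most genes. The sign of the change was the same in both tables for 8 of the 10. Within replicates 1 and 2, 2 of the 10 passed (Havcr2 and Cd160), and within replicates 3 and 4, 2 passed (Havcr2 and Pdcd1). With the replicate block these counts were 6 and 7, where 18.8% and 14.3% of all genes passed.

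Levels per kilobase ordered the 10 genes differently in each population. In Ebi3-Treg the order by mean FPKM was Cd5, Cd200, Vsir, Pdcd1, Btla, Cd101, Cd160, Lag3, Lair1 and Havcr2, where the ranges of neighbours overlapped from Cd200 to Vsir and from Btla downwards. In Blimp1-Treg it was Vsir, Cd5, Pdcd1, Cd200, Lag3, Cd101, Havcr2, Btla, Lair1 and Cd160, where the ranges of Vsir and Cd5, of Pdcd1, Cd200 and Lag3, of Cd101, Havcr2 and Btla, and of Lair1 and Cd160 overlapped from one neighbour to the next.

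The summed FPKM of the 10 genes was 768 to 818 in Ebi3-Treg and 716 to 977 in Blimp1-Treg. Cd200 made up 24.3 ± 3.44% of that sum in Ebi3-Treg and 9.89 ± 3.24% in Blimp1-Treg (SD, n = 4 each). Lag3 made up 0.564 ± 0.262% in Ebi3-Treg and 6.78 ± 4.56% in Blimp1-Treg. Vsir made up 20.2 ± 3.55% in Ebi3-Treg and 31.5 ± 3.62% in Blimp1-Treg. Shares of 1 sum depend on each other, and no test was made on them.

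**Figure D3:**
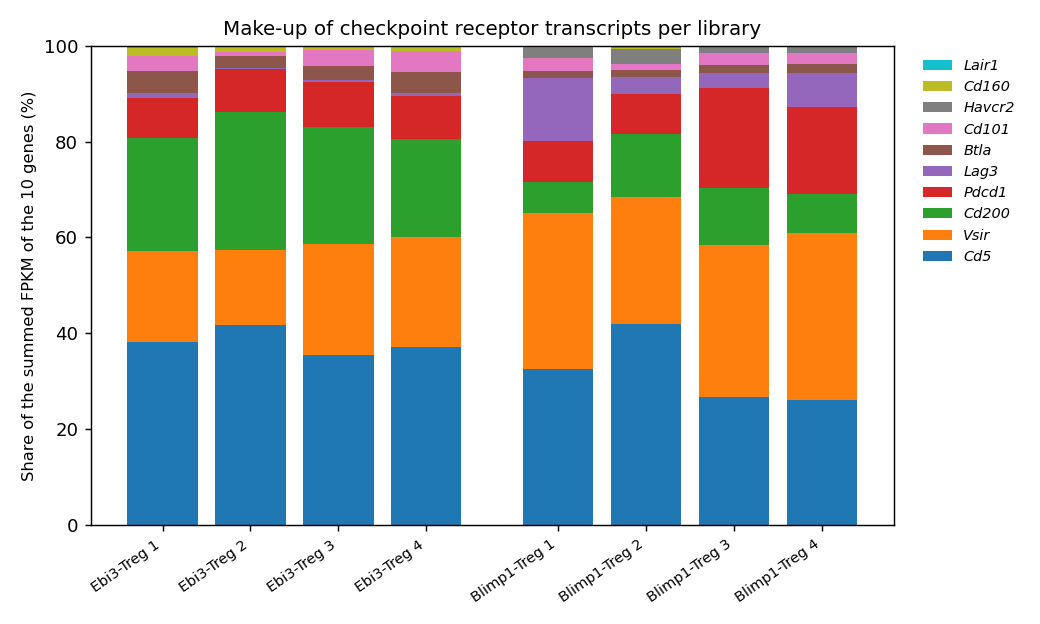
Share of the summed FPKM of the 10 genes (y axis, %) that each gene takes in each library (x axis), with Ebi3-Treg libraries on the left and Blimp1-Treg libraries on the right. The Cd200 segment takes 20.5 to 28.9% in Ebi3-Treg and 6.29 to 13.2% in Blimp1-Treg, and the Lag3 segment is hardly visible in Ebi3-Treg.

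Markers of other cells were read beside these results, and their part in them was not tested. CD160 is known on NK, CD8 and gamma delta T cells. The sum of 5 NK markers was 12.5 to 50.9 FPKM in Ebi3-Treg, against 23.5 to 43.0 in Blimp1-Treg, with Klra8 and Klre1 at 0 in at least 1 library. Klrb1f made up most of that sum in every library. The mean of Klrb1f was lower in Ebi3-Treg, and those of the other NK markers were higher, with overlapping libraries. Ncr1, too low to be tested, was at 2.29 ± 3.08 FPKM in Ebi3-Treg, against 0.333 ± 0.285 in Blimp1-Treg (SD, n = 4 each). Its highest library was Ebi3-Treg 1 (6.84 FPKM), as for Cd160. Klrb1c was at 2.85 ± 1.92 FPKM, against 1.54 ± 0.733, and did not pass (0.53, adjusted p = 0.515). The sum of 2 CD8 markers was 8.58 to 39.3 FPKM in Ebi3-Treg, against 7.76 to 30.3 in Blimp1-Treg, and that of 4 gamma delta or NKT markers was 3.89 to 13.0 FPKM in Ebi3-Treg, against 1.61 to 23.2 in Blimp1-Treg. None of the tested NK (2), CD8 (1) or gamma delta and NKT (1) markers passed, although Klrb1f of the NK list (-0.68, adjusted p = 0.104) was lower in Ebi3-Treg with the block (adjusted p = 0.0211). VISTA, TIM-3 and LAIR-1 are known on myeloid cells. The sum of 6 macrophage and monocyte markers was 12.4 to 109 FPKM in Ebi3-Treg, against 8.97 to 36.8 in Blimp1-Treg, and that of 6 dendritic cell markers was 5.59 to 14.3 FPKM in Ebi3-Treg, against 4.13 to 11.8 in Blimp1-Treg. None of the tested markers of these lists (2 and 1) passed, although Lyz2 (1.79, adjusted p = 0.0920) was higher in Ebi3-Treg with the block (adjusted p = 0.0160). BTLA and CD200 are known on B cells, whose 10 markers summed to 49.97 to 277 FPKM in Ebi3-Treg, against 33.4 to 188 in Blimp1-Treg, with none of the 6 tested passing, although Cd22 (1.22, adjusted p = 0.290) and Cd79b (0.47, adjusted p = 0.504) were higher in Ebi3-Treg with the block (adjusted p = 0.000928 for Cd22 and 0.0135 for Cd79b). Without both libraries numbered 1, which held the most of them, Cd200 changed by 1.01 (adjusted p = 0.0134), and 9.06% of all tested genes were higher. The B cell sums of libraries 2 to 4 were 49.97, 74.5 and 63.6 FPKM in Ebi3-Treg, against 33.4, 38.9 and 38.6 in Blimp1-Treg. These sums thus stayed higher in Ebi3-Treg in that setting, and their part in the Cd200 level was not tested. The 5 markers of conventional CD4 T cells summed to 597 to 840 FPKM in Ebi3-Treg, against 138 to 246 in Blimp1-Treg. Tcf7, also on the list of regulators below, made up most of the sum in Ebi3-Treg (410 to 664 FPKM). Of the 5, 2 were higher in Ebi3-Treg, Tcf7 and Cd40lg, and 4 with the block. Of all tested genes 3.37% were higher, and 13.5% with the block. Il7r of this list went the other way and did not pass (-0.37, adjusted p = 0.298).

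Ligands and partners of these receptors formed a list of 20 genes. This list and those of relay and regulator genes below were chosen with earlier results of these data known, so their counts are no test of a list. Of the 20 genes 16 were tested. Among them 1 was higher and 1 lower in Ebi3-Treg and 14 did not pass, with a median of 0.21 against 0.067 over all tested genes. With the block these counts were 2 and 4. Of all tested genes 6.29% passed, and 22.4% with the block. Tnfsf14, which encodes LIGHT, another partner of HVEM, was at 11.6, 4.50, 6.82 and 7.79 FPKM in Ebi3-Treg libraries 1 to 4, against 2.36, 0.359, 2.55 and 2.05 FPKM in Blimp1-Treg libraries 1 to 4. The populations did not overlap, and the change was 1.65 (SE 0.37, adjusted p = 0.0375), a call that was lost when any library other than Blimp1-Treg 1 was left out (adjusted p up to 0.117). HVEM itself, Tnfrsf14, was at 9.39 ± 2.68 FPKM in Ebi3-Treg, against 7.15 ± 2.42 in Blimp1-Treg (SD, n = 4 each) and did not pass (0.37, adjusted p = 0.616).

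Lgals3 encodes galectin-3, which is known to bind LAG-3. It was at 9.94, 2.44, 1.51 and 1.32 FPKM in Ebi3-Treg libraries 1 to 4, against 35.5, 38.9, 39.6 and 27.7 FPKM in Blimp1-Treg libraries 1 to 4. Ebi3-Treg 1 stood above the other Ebi3-Treg libraries but below every Blimp1-Treg library. The change was -3.23 (SE 0.40, adjusted p = 0.00386). Macrophages also express galectin-3, and their markers summed to 109 FPKM in Ebi3-Treg 1 and 97.7 FPKM in Ebi3-Treg 2, where Lgals3 was at 9.94 and 2.44 FPKM. Their part in the Lgals3 level was not tested. Selplg, whose product PSGL-1 binds VISTA at acid pH, was at 567 ± 57.9 FPKM in Ebi3-Treg, against 859 ± 131 in Blimp1-Treg, a log2 difference of -0.59 that did not pass (SD, n = 4 each, adjusted p = 0.0679, and 0.00628 with the block). Cd200r1, the receptor of CD200, had a log2 difference of -0.52 that did not pass (adjusted p = 0.0981, and 0.0241 with the block). The PD-1 ligand genes Cd274 (0.17, adjusted p = 0.708) and Pdcd1lg2 (0.72, adjusted p = 0.173, and 0.00924 with the block) did not pass.

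**Figure D4:**
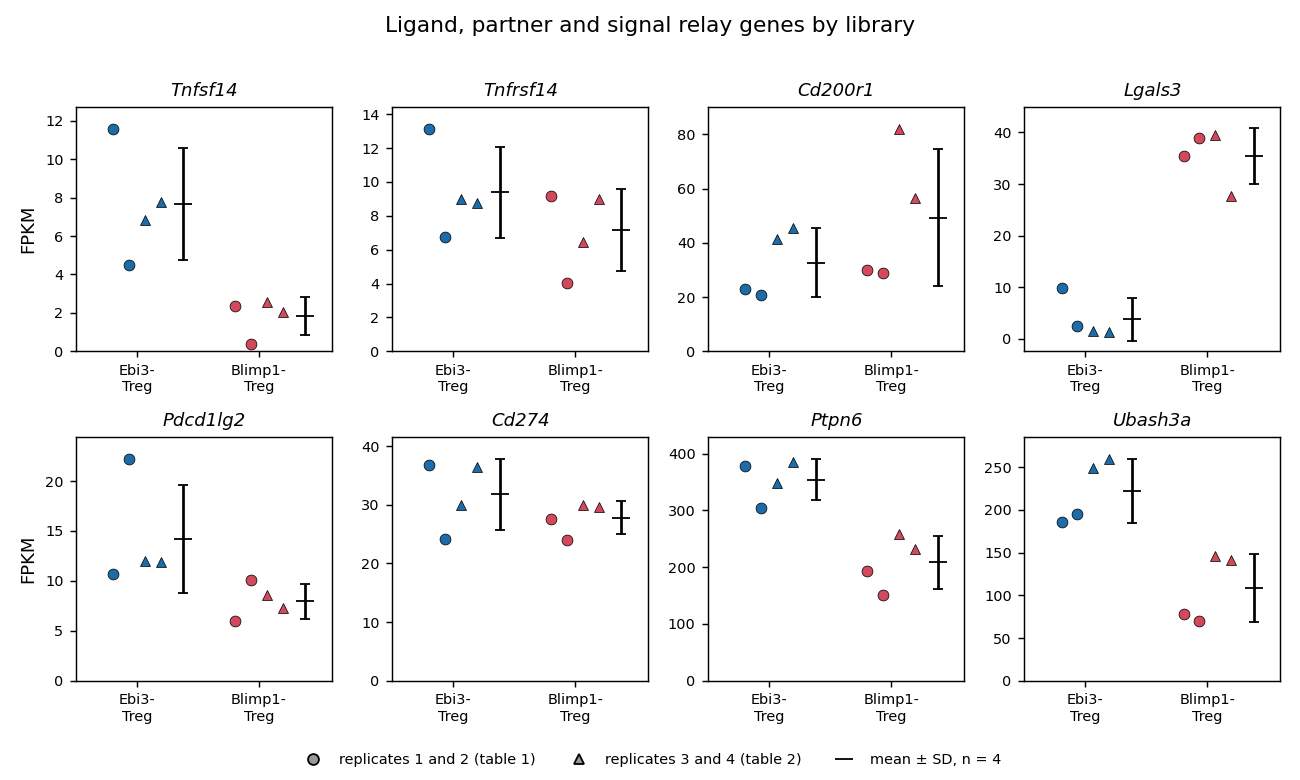
FPKM of 8 ligand, partner and signal relay genes (y axis, linear) in Ebi3-Treg libraries (left in each panel) and Blimp1-Treg libraries (right), with circles for replicates 1 and 2, triangles for replicates 3 and 4, and the mean ± SD beside them. Lgals3 is at 1.32 to 9.94 FPKM in Ebi3-Treg against 27.7 to 39.6 FPKM in Blimp1-Treg, and Tnfrsf14 overlaps between the populations.

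The relay behind inhibitory receptors was read from 19 genes, all tested. In Ebi3-Treg 2 were higher, 0 were lower and 17 did not pass, where 3.37% of all tested genes were higher and 2.93% lower, with a median of 0.10. With the block 5 were higher and 3 lower, where 22.4% of all genes passed. Ptpn6, which encodes the phosphatase SHP-1, was at 379, 305, 348 and 385 FPKM in Ebi3-Treg libraries 1 to 4, against 193, 151, 258 and 231 FPKM in Blimp1-Treg libraries 1 to 4. The populations did not overlap, and the change was 0.79 (SE 0.16, adjusted p = 0.0249), a call lost when any 1 of Ebi3-Treg 2 to 4 and Blimp1-Treg 1, 3 and 4 was left out (adjusted p up to 0.0973). Ubash3a, a suppressor of T cell receptor signalling, was at 222 ± 37.5 FPKM in Ebi3-Treg, against 109 ± 40.1 in Blimp1-Treg (SD, n = 4 each), a change of 1.08 (SE 0.14, adjusted p = 0.00497, and 0.0801 without the table term). The phosphatase gene Ptpn22 (-0.40, adjusted p = 0.107) and the diacylglycerol kinase gene Dgka (0.68, adjusted p = 0.118) did not pass, but did with the block (adjusted p = 0.0103 for Ptpn22 and 0.00202 for Dgka).

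Known regulators of checkpoint genes formed a list of 19, of which 18 were tested. In Ebi3-Treg 4 were higher, 4 were lower and 10 did not pass, where 3.37% of all tested genes were higher and 2.93% lower, with a median of -0.086. With the block 5 were higher and 7 lower, where 22.4% of all genes passed. Prdm1, which the sort fixed, is among the lower genes in both counts. Tcf7, which encodes TCF-1, was at 583 ± 117 FPKM in Ebi3-Treg, against 96.3 ± 41.7 in Blimp1-Treg (SD, n = 4 each), a change of 2.70 (adjusted p = 0.0028). Id3 changed by 2.65 (adjusted p = 0.00031), and Bach2 by 1.95 (adjusted p = 0.0183). Nr4a1, induced by antigen receptor signals, changed by 0.85 (adjusted p = 0.0210). Maf, known to promote expression of inhibitory receptors, was at 17.2 ± 1.97 FPKM in Ebi3-Treg, against 65.5 ± 18.4 in Blimp1-Treg (SD, n = 4 each), a change of -1.83 (adjusted p = 0.00252). Tbx21 (-1.11, adjusted p = 0.0350) and Nfil3 (-1.02, adjusted p = 0.0378), a factor known to induce Havcr2, were also lower. Bach2 and Nr4a1 lost their call when library 3 or 4 of either population was left out. Tbx21 lost it without any 1 of Ebi3-Treg 2 to 4 and Blimp1-Treg 1, 3 and 4, and Nfil3 without any 1 of Ebi3-Treg 1, 3 and 4 and Blimp1-Treg 2 to 4, with values of up to 0.137 over these 4 genes. Tox did not pass (-0.21, adjusted p = 0.414).

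**Figure D5:**
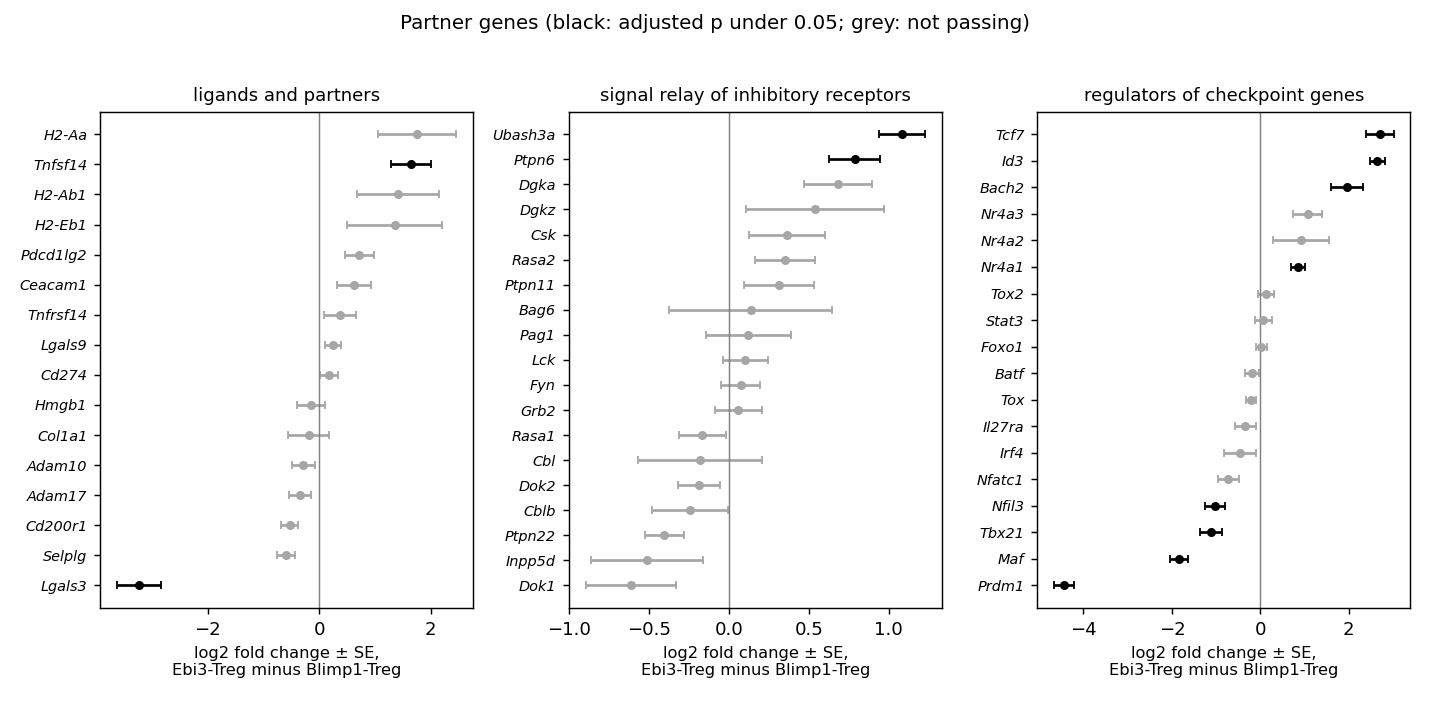
Log2 fold change ± SE of FPKM + 1, Ebi3-Treg minus Blimp1-Treg (x axis), for each tested gene (y axis) of the ligand and partner, signal relay and regulator lists, in black where the adjusted p was under 0.05 and grey elsewhere. Prdm1 at -4.43 and Tcf7 at 2.70 mark the ends of the regulator list, and Lgals3 at -3.23 the low end of the ligand list.

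The genes whose profile over the 8 libraries was closest to each called member were found from the root mean square difference of log2(FPKM + 1) values, each centred on its mean, over 10552 named genes. These measures describe likeness and carry no test. Havcr2 was closest to Metrnl, a secreted meteorin-like protein (0.247), and Fam20a (0.483). Lag3 was closest to Ltb4r1, a leukotriene B4 receptor (0.582), and Plxdc1 (0.618). Vsir was closest to the riboflavin transporter gene Slc52a3 (0.0999) and to Slc41a3 (0.111). Cd160 was closest to Ncoa7 (0.262) and to Bcat1, a branched-chain aminotransferase (0.280). Cd200 was closest to the tetraspanin gene Tspan31 (0.107) and to Lhpp (0.198).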

How the data were processed

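RNA was sequenced from 4 Ebi3-Treg and 4 Blimp1-Treg samples. Per the labels' protocols, sequencing libraries came from a SMART-Seq v4 low-input kit, which amplifies cDNA. The deposited values are FPKM, 1 per gene and library, which the authors split over 2 tables. The submitters' processing notes name the build mm9 and the tools HTSeq 0.6.1, TopHat2 2.0.12 and Bowtie2 2.2.3. The role of each tool, the annotation and the use of strand were not stated.

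The tables held 47709 and 47681 features, of which 640 and 612 without an Ensembl identifier were left out. The commonest product of FPKM and reference exon length among the values above 0 of a library was taken as that of 1 fragment. The depth of each library was inferred from it. With reference exon lengths, 34.4% to 45.3% of the values above 0 came out whole within 0.01, so no count test was run. An amplified library without molecular identifiers does not count independent molecules, so depth covers counting error only.

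Genes that reached 1 FPKM in 4 or more of the 8 libraries entered a limma 3.58.1 fit (R 4.3.3) of log2(FPKM + 1) on population and table, with a variance trend. Fold changes are Ebi3-Treg over Blimp1-Treg. Adjusted p-values are two-sided Benjamini-Hochberg over all 12273 tested genes, with a threshold of 0.05. The contrast was also nested in table and tested as an interaction. Same-numbered libraries shared deviations from their population's mean (r = 0.624, 0.886, 0.534 and 0.543 for numbers 1 to 4), and the replicate block uses all 4 numbers. With means taken within tables, r was 0.847 for numbers 1 and 2 and -0.0844 for 3 and 4. Ebi3-Treg 3 with Blimp1-Treg 4 and Ebi3-Treg 4 with Blimp1-Treg 3 gave 0.564 and 0.610, so the data pair numbers 1 and 2, while the r of 3 and 4 is shared across their table. The labels state no pairing.

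Genes named are the 10 members, up to 4 genes of each partner list with the smallest unadjusted p and any other past the threshold, the 2 closest profiles of each called member, and sort or marker genes. Tnfrsf14, Cd274, Pdcd1lg2, Tox, Xist, Cd40lg, Il7r, Cd22, Cd79b, Lyz2, Ncr1, Klrb1c, Klrb1f, Klra8, Klre1, Ctla4 and Cd3e were named after their values were seen. The members and lists were chosen with earlier results of these data known. Names, exon lengths and exon overlaps came from a GRCm38 annotation and promoters from RefSeq on GRCm38.p6.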

Additional observations from a re-analysis of the deposited data

Results flagged for a closer look

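Among 84 groups of 4 libraries, 4 held a library far from the other 3. The rule is set to flag about 1 in 20 groups by chance, a rate not estimated from these data. Of the 20 groups of the checkpoint receptor genes 1 did. Cd101 was at 8.71 FPKM in Blimp1-Treg library 2, with the other Blimp1-Treg libraries at 22.8 to 24.1 FPKM. Lgals3 was at 9.94 FPKM in Ebi3-Treg library 1, with the others of that population at 1.32 to 2.44 FPKM. Dgka was at 109 FPKM in Blimp1-Treg library 2, with the others at 198 to 212 FPKM. Tspan31 was at 77.9 FPKM in Ebi3-Treg library 2, with the others at 50.3 to 52.2 FPKM. The flags of Cd101, Dgka and Tspan31 thus fell on library 2 of a population. Over all genes library 2 also stood apart, by the chi-square of inferred fragments per degree of freedom. This measure was 570 to 944 for replicate pairs that held library 2, against 43.8 to 270 for the other pairs. Whether this bears on the flags was not tested.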

How the results depend on the processing

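Of all tested genes 772 passed, against 420 without a filter on low values, 441 without the table term, 2752 with the replicate block, 1970 and 1962 without both libraries numbered 1 or 2, and 341 to 771 with 1 library left out, with 385, 370, 403 and 341 without Ebi3-Treg 3, Ebi3-Treg 4, Blimp1-Treg 3 and Blimp1-Treg 4. The count of members higher in Ebi3-Treg (2) was 1 with a filter of 5 FPKM, which leaves Cd160 and Lair1 untested, 1 under median-of-ratios scaling, 1 without a filter and 1 to 2 with 1 library left out. It was 3, with Btla added, under quantile normalization, with the replicate block and without both libraries numbered 1 or 2. In these settings 3.86%, 13.5%, 9.06% and 9.04% of all tested genes were higher, against 3.37% in the main fit. The count lower (3) was 2 without a filter, 2 without the table term (Vsir lost in both), 4 without both libraries numbered 2 (Pdcd1 added) and 2 to 3 with 1 library left out. Without both libraries numbered 2, 6.94% of all tested genes were lower, against 2.93% in the main fit. Within replicates 1 and 2 the count (2) was 0 with each table fitted alone, 1 with the filter of 5 FPKM, 6 with the replicate block and 1 to 2 with 1 library left out. Within replicates 3 and 4 the count (2) was 5 with each table fitted alone, 1 without a filter, 1 without a variance trend, 7 with the replicate block and 0 to 2 with 1 library left out (0 without any 1 of the libraries numbered 3 or 4). For counts within a table the share of all genes that passed was taken only in the main fit and with the block. It was 1.66% and 0.994% in the main fit and 18.8% and 14.3% with the block, for replicates 1 and 2 and replicates 3 and 4. The other counts within a table, also those with each table fitted alone, therefore cannot be read as a result about the members. No member differed between tables under any alternative. The cause of these shifts was not tested.

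Over 42 named genes, 640 gene and setting pairs kept direction and side of the threshold, 78 lost a call, 27 gained one and 8 changed sign. Havcr2, Lag3 and Cd160 kept their calls with any 1 library left out (adjusted p at most 0.0434 for Lag3 and 0.0205 for Cd160). Another filter, scaling, pseudocount or no table term ended the calls of Vsir, Cd200, Tnfsf14, Ptpn6, Ubash3a, Nr4a1, Tbx21, Nfil3, Slc52a3 and Tspan31 in at least 1 setting each (adjusted p at most 0.106). The sign changes were Cd101 (-0.10 without Blimp1-Treg 2, -0.15 without Ebi3-Treg 1 and -0.013 without Ebi3-Treg 4, range -0.15 to 0.49), Lair1 (0.075 without both libraries numbered 2, 0.033 without Ebi3-Treg 2, range -0.50 to 0.033 with 1 library left out), Foxp3 (0.050 without Blimp1-Treg 1, 0.0054 without Ebi3-Treg 2, range -0.24 to 0.050) and Cd4 (0.0033 without Blimp1-Treg 1, range -0.28 to 0.0033), none of which passed.

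Depth limits the low genes: Havcr2 in Ebi3-Treg 4 rests on about 2.07 fragments.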
